A study of Sus scrofa with 12 samples.

Results

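The genes of the 2 mTOR kinase complexes were compared between the mRNA cargo of extracellular vesicles (EVs) and that of the adipose mesenchymal stromal/stem cells (MSCs) that shed them. The 9 genes were RICTOR, MAPKAP1, RPTOR, MTOR, MLST8, DEPTOR, TSC1, TSC2 and AKT1, each read from its most-read entry in the mRNA table. Of these, 6 had an entry among the 29658 entries used. No entry matched DEPTOR, TSC1 or AKT1 by symbol or Ensembl identifier, and these 3 were not analysed here. RICTOR was taken up because its EV level had been seen to exceed its MSC level, so its values are given as a description without a test.

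The mRNA libraries came from 3 female domestic pigs aged 3 months. From each pig, 1 library was made from abdominal-fat MSCs at passage 3, grown with platelet lysate, and 1 from the EVs that ultracentrifugation recovered from the culture supernatant. No agent or genotype separated the groups, which are called MSC replicates 1 to 3 and EV replicates 1 to 3. A replicate number is a pig, so MSC and EV libraries of the same number are a pair. Whether a pig gave more than 1 culture is not given in the sources used here.

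The kinase MTOR works in 2 assemblies that share the subunit MLST8. mTORC1 is defined by RPTOR, which presents substrates of protein synthesis and growth to the kinase, and it is switched on by the small GTPase RHEB, which the TSC1-TSC2 complex holds in check. mTORC2 is defined by RICTOR together with MAPKAP1 (also called SIN1), and it phosphorylates AKT kinases and SGK1. DEPTOR inhibits both complexes, and AKT1 relieves the block of TSC2 on mTORC1. In stromal cells, mTOR signalling is known for its part in growth, survival and lineage choice.

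Between 10429085 and 12276855 reads per library fell on genes, and the counts reflect the share of a library rather than the amount of RNA per cell or vesicle. Fewer vesicles or cells holding a transcript and less transcript in each cannot be told apart in such bulk libraries. The MSC surface markers CD44, NT5E, THY1, ENG and PDGFRB summed to 76.2 to 148 RPKM (reads scaled to gene model length and library total) in MSCs and 109 to 122 in EVs, with THY1 listed at 0 throughout. Among the EV surface genes, CD63 and CD81 made up nearly all of the sum, while CD9 lay between 0.0732 and 0.130 RPKM. Endothelial markers, in effect PECAM1 alone, summed to 0.589 to 1.12 RPKM in MSCs and 0.104 to 0.439 in EVs, without overlap. Of all tested entries, 13.6% had every EV library below every MSC library. The part of endothelial markers in the results was not tested. Platelet markers, in effect GP9 alone, summed to 1.30 to 1.95 RPKM in MSCs and 0.563 to 1.72 in EVs. Leukocyte markers summed to 5.00 to 6.15 and 4.63 to 8.05, nearly all of it CD14. The leukocyte marker PTPRC lay between 0.0116 and 0.0592 RPKM over all libraries. Adipocyte markers summed to 0 and 0 to 0.0286. THY1, VWF, PPBP, PLIN1 and LYZ each share their place with another overlapping entry, so no level is read from their 0. No entry matched CDH5, PF4 or FABP4. CD9, ITGB1, ENG, PECAM1 and CD14 are each overlapped by an entry of 0 reads, so their levels are uncertain.

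RICTOR stood at a higher level in EVs than in MSCs in all 3 pigs, as did 22.6% of all tested entries, while the other 5 measured members differed little. In the MSCs of pigs 1, 2 and 3, reads on RICTOR numbered 145, 25 and 73, and their EVs held 288, 375 and 298. The lowest EV library thus held more RICTOR reads than the highest MSC library, and the 3 EV libraries lay close together where the MSC libraries were spread. Exact 95% Poisson intervals, which cover counting error only, ran from 16.2 to 36.9 reads in MSC replicate 2 and from 122 to 171 in MSC replicate 1. In the EV libraries the intervals ran from 256 to 323, from 338 to 415 and from 265 to 334 reads.

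Scaled by the trimmed mean of M-values (TMM) to a common library total (CPM, normalised read counts), RICTOR was at 11.2, 2.39 and 6.19 in MSCs and at 24.3, 29.3 and 30.1 in EVs. Within pigs, the EV library was higher by 1.11, 3.61 and 2.28 on the log2 scale, least in pig 1 and most in pig 2. Pig 2 had the lowest MSC level, and its EV level lay between those of the other pigs. Without MSC replicate 2 the log2 fold change was 1.68, and without MSC replicate 1 it was 2.69. On the deposited RPKM with a pseudocount of 1 it was 0.87, the mean RPKM of RICTOR in MSCs being 0.356. Among the 12392 entries that passed the count filter, 1.10% had a higher log2 fold change than RICTOR.

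**Figure D1:**
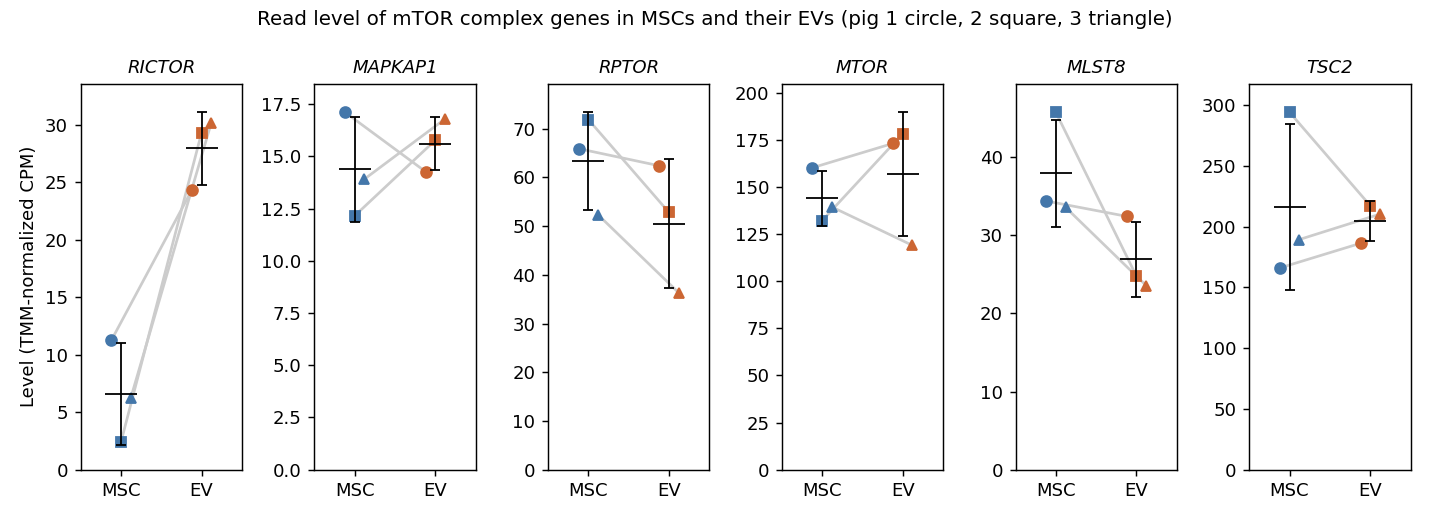
TMM-normalized level (CPM, each axis starting at 0) of the 6 measured members in MSC and EV libraries. Points are libraries, grey lines join the libraries of a pig, and bars give the mean and SD of 3 libraries. RICTOR is the member whose EV libraries (24.3 to 30.1 CPM) all lie above its MSC libraries (2.39 to 11.2 CPM), whereas MAPKAP1, RPTOR, MTOR and TSC2 overlap between groups and MLST8 lies lower in EVs.

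The RICTOR entry (ENSSSCG00000016853) spans chr16:25361448-25498073 on the minus strand of the build susScr3, with a gene model of 5179 bases. Its reads were therefore spread over a longer model than the 2020 bases of the median tested entry. Longer models tended to be slightly higher in EVs: the trend fitted over all entries was -0.03 on the log2 scale at 2020 bases and 0.19 at the length of RICTOR. With that trend removed, the log2 fold change of RICTOR was 1.88. Another 3 entries overlap RICTOR on the same strand and held 2 reads in all 6 libraries together, so its level is uncertain to an unknown extent. MTOR, TSC2 and MLST8 are overlapped by 2, 3 and 1 entries on the other strand, all at 0 reads.

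MAPKAP1, the other core subunit that defines mTORC2, did not share the separation of the groups seen for RICTOR. Over the 6 libraries, its log2 CPM ran with that of RICTOR at a Pearson's r of 0.744. Its entry (ENSSSCG00000029169, chr1:300139421-300176247, minus strand, 745 bases of model) held 221, 127 and 164 reads in MSCs against 169, 202 and 166 in EVs. The groups overlapped, and the EV library was lower in pig 1 and higher in pigs 2 and 3. The levels were 14.4 ± 2.52 CPM in MSCs and 15.6 ± 1.27 CPM in EVs (SD, n = 3), a log2 fold change of 0.12 with an SE of 0.27 (adjusted p = 0.831, edgeR's quasi-likelihood test over all tested entries).

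RPTOR, the defining subunit of mTORC1, lay lower in EVs in each pig, as did 24.3% of all tested entries, but within the spread of the libraries. Its entry (ENSSSCG00000017139, chr12:1614056-1689108, minus strand) held 851, 751 and 617 reads in MSCs against 739, 676 and 359 in EVs. The EV library of pig 3 was the lowest of the 6, and that of pig 1 lay above the MSC library of pig 3, so the groups overlapped. The mean level was 63.4 ± 10.0 CPM in MSCs and 50.5 ± 13.2 CPM in EVs (SD, n = 3). The log2 fold change was -0.33 with an SE of 0.27 (edgeR, adjusted p = 0.538), and without EV replicate 3 it was -0.14.

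MTOR, the kinase itself, was read at like levels on both sides. Its entry (ENSSSCG00000003413, chr6:65191722-65317849, minus strand) held 2068, 1380 and 1643 reads in MSCs against 2050, 2282 and 1176 in EVs. Pig 2 was higher in its EVs and pig 3 lower, and the 3 EV libraries straddled the MSC range. At 144 ± 14.6 CPM in MSCs and 157 ± 32.8 CPM in EVs (SD, n = 3), the log2 fold change was 0.12 with an SE of 0.25 (edgeR, adjusted p = 0.802). The sign of this small value depended on the processing: it was -0.32 with the length trend removed, the gene model of MTOR being 9098 bases long.

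MLST8, the subunit that both complexes hold, was the only member with all EV libraries below all MSC libraries. Its entry (ENSSSCG00000008044, chr3:42386685-42400877, plus strand) held 444, 478 and 396 reads in MSCs against 384, 317 and 233 in EVs. In CPM the MSC libraries lay between 33.6 and 45.7 and the EV libraries between 23.6 and 32.4, a narrow gap that pig 1 hardly contributed to. The log2 fold change was -0.49 with an SE of 0.26, and it did not pass the test (edgeR, unadjusted p = 0.0915, adjusted p = 0.362). Of all 12392 tested entries, 13.6% had every EV library below every MSC library, and 14.3% had every EV library above.

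TSC2, the catalytic partner in the complex that switches RHEB off, had like mean levels on both sides, with more spread among the MSC libraries than among the EV libraries. Its entry (ENSSSCG00000008040, chr3:42245980-42284735, plus strand) held 2144, 3074 and 2233 reads in MSCs against 2207, 2783 and 2079 in EVs. The level was 217 ± 68.3 CPM in MSCs and 205 ± 16.3 CPM in EVs (SD, n = 3), with the MSC library of pig 2 above all others. The log2 fold change was -0.08 with an SE of 0.28 (edgeR, adjusted p = 0.893). Without MSC replicate 2 it was 0.20, the opposite sign. Among the MSC libraries, that of pig 2 was the highest for both TSC2 and MLST8. These genes lie close together on chromosome 3, and whether place bears on their levels was not tested.

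Of the 6 members, 0 passed an adjusted p under 0.05 by edgeR in either direction, as did 0% of all 12392 entries, whose lowest adjusted p was 0.129. At a fold over 2 and an unadjusted p under 0.05, the count was 1 member higher in EVs, RICTOR, where 5.55% of all entries were called. No weight rests on this count, since RICTOR was chosen by the same contrast. The count lower in EVs was 0 members, beside 3.57% of all entries. Of the 5 other members, 0 were called by DESeq2, an alternative tool that called 2.04% of entries higher and 1.50% lower at an adjusted p under 0.05. The median log2 fold change was 0.02 over the 6 members and -0.02 over all tested entries, and the 5 members other than RICTOR ranged from -0.49 to 0.12.

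Per length of gene model, RICTOR was the least abundant of the measured members in both groups. In MSCs the deposited RPKM ran in the order TSC2 (6.78 ± 1.44), MAPKAP1 (5.23 ± 1.40), MTOR (4.26 ± 0.831), RPTOR (3.80 ± 0.571), MLST8 (2.49 ± 0.233) and RICTOR (0.356 ± 0.263; SD, n = 3). Neighbours from TSC2 down to RPTOR overlapped in their libraries, whereas RPTOR lay above MLST8, and MLST8 above RICTOR, without overlap. Within libraries, MAPKAP1 lay above MTOR in all 3, and TSC2 above MAPKAP1 and MTOR above RPTOR in 2 of 3. In EVs the order was the same, from TSC2 (6.62 ± 0.803) over MAPKAP1 (5.67 ± 0.415), MTOR (4.76 ± 1.44), RPTOR (3.14 ± 1.09) and MLST8 (1.83 ± 0.469) to RICTOR (1.46 ± 0.157). Each neighbouring pair overlapped in range over the EVs, the step from MLST8 to RICTOR included. Compared within libraries, the order held in all 3 EV libraries. By mean RPKM, RICTOR stood at 8.36% of the level of MTOR in MSCs and at 30.7% in EVs.

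The balance of mTORC2 to mTORC1 parts was read as ratios of reads within a library, which need no scaling between libraries. For every 100 reads on RPTOR there were 17.0, 3.33 and 11.8 reads on RICTOR in MSCs and 39.0, 55.5 and 83.0 in EVs. The EV ratios all lay above the MSC ratios, with log2 means of -0.83 ± 0.55 and -3.51 ± 1.24 (SD, n = 3), a 6.44-fold difference. The level of RICTOR enters this ratio, which is therefore a description. Without MSC replicate 2 the log2 difference was 1.99 in place of 2.69.

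With MAPKAP1 as the mTORC2 part, which the choice of RICTOR did not involve, no such shift was resolved. There were 26.0, 16.9 and 26.6 reads on MAPKAP1 per 100 reads on RPTOR in MSCs and 22.9, 29.9 and 46.2 in EVs. The ratio was higher in EVs in 2 of 3 pigs, and the groups overlapped. A two-sided exact permutation test took the libraries as unpaired (n = 3 per group), although MSC and EV libraries of a pig are a pair. The smallest p possible in this unpaired test is 0.1, so that it could not pass 0.05. A test within pigs was not run. The mean log2 difference was 0.48, a 1.39-fold ratio (p = 0.4 by the unpaired permutation test). Without EV replicate 3 it was 0.20 and without MSC replicate 2 0.27. Between the mTORC2 genes themselves, as a description, there were 65.6, 19.7 and 44.5 RICTOR reads per 100 MAPKAP1 reads in MSCs against 170, 186 and 180 in EVs.

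**Figure D2:**
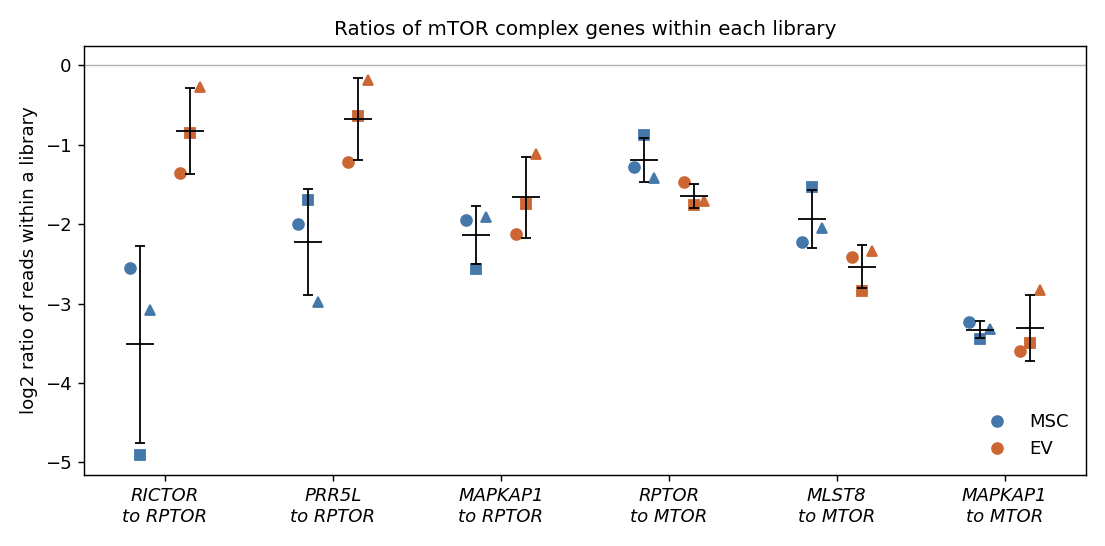
Log2 ratios of reads between mTOR complex genes within each library (y axis, log2), with points for libraries (pig 1 circle, pig 2 square, pig 3 triangle) and bars for the mean and SD of 3 libraries. The RICTOR to RPTOR ratio is 2.69 higher in EVs, the MAPKAP1 to RPTOR ratio overlaps between groups, and the RPTOR to MTOR and MLST8 to MTOR ratios lie slightly lower in EVs. The PRR5L to RPTOR ratio, 1.55 higher in EVs, was added after its values were seen.

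Against MTOR, reads on the mTORC1 part and the shared subunit were fewer in EVs, by an amount and with a separation that depended on the processing. RPTOR stood at 41.2, 54.4 and 37.6 reads per 100 reads on MTOR in MSCs and at 36.0, 29.6 and 30.5 in EVs, lower in each pig and without overlap. The mean log2 difference was -0.46. MLST8 stood at 21.5, 34.6 and 24.1 reads per 100 on MTOR in MSCs and at 18.7, 13.9 and 19.8 in EVs, a log2 difference of -0.60 without overlap. With the length trend removed these differences were -0.16 for RPTOR and -0.28 for MLST8, and the groups then overlapped for both. Without MSC replicate 2 the differences were -0.30 and -0.40. MAPKAP1 did not separate the groups as counted, with a log2 difference to MTOR of 0.02. That difference was -0.22 without EV replicate 3 and 0.55 with the length trend removed, where the groups did separate. RICTOR separated the groups as counted, at 7.01, 1.81 and 4.44 against 14.0, 16.4 and 25.3 reads per 100. These ratios were not tested, and 3 libraries against 3, taken as unpaired, cannot give a permutation p under 0.1. How often ratios of other entries separate the groups was not counted.

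The other genes of the pathway were read from a list of 82 genes arranged by role, which includes the 9 members. An entry was found for 67 of them and 59 passed the count filter. By edgeR, 0 passed an adjusted p under 0.05. At an unadjusted p under 0.05, 9 of the 59 differed, namely 6 higher in EVs, each over 2-fold, and 3 lower, none over 2-fold. Over all tested entries, 16.0% differed at that threshold, 8.03% higher and 7.93% lower. RICTOR, which was chosen by this contrast, is among the 6. Without the members, 5 of 53 genes (9.43%) were higher over 2-fold beside the 5.55% of all entries. Of these 53, 3 were lower and 45 passed neither way. Their median log2 fold change was -0.01. Of the 59, positive fold changes numbered 29 and negative ones 30.

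PRR5L, which encodes a protein that binds RICTOR in mTORC2, was the mTORC2 gene on the list, beside RICTOR, that was over 2-fold higher in EVs by the unadjusted test. Its reads were 214, 231 and 78 in MSCs and 319, 436 and 315 in EVs, with the MSC library of pig 3 the lowest. Every EV library lay above every MSC library, as in 14.3% of all tested entries. The CPM were 15.1 ± 7.85 in MSCs and 31.0 ± 3.65 in EVs (SD, n = 3). The log2 fold change of PRR5L was 1.04 with an SE of 0.43 (edgeR, unadjusted p = 0.0431, adjusted p = 0.300), and without MSC replicate 3 it was 0.67. Only without MSC replicate 2, of the 6 libraries left out in turn, did it still pass the unadjusted test. Its low MSC library was not that of RICTOR, which was lowest in pig 2. PRR5, the related subunit, had 10 reads in all 6 libraries together and was not tested. Another entry, at 0 reads, overlaps PRR5, so no level is read from it.

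In the nutrient-sensing branch, FNIP1 differed most. It encodes a partner of folliculin, which acts on the Rag GTPases that bring mTORC1 to the lysosome. FNIP1 reads were 571, 305 and 397 in MSCs and 925, 2123 and 1119 in EVs. The EV library was above the MSC library in each pig, as in 22.6% of all tested entries, and most in pig 2. Its mean was 35.7 ± 7.72 CPM in MSCs and 119 ± 44.2 CPM in EVs (SD, n = 3). FNIP1 passed the unadjusted test but not the adjusted one (log2 fold change 1.74, SE 0.33, edgeR, unadjusted p = 0.000928, adjusted p = 0.206). By DESeq2, which called 2.04% of all entries higher, its adjusted p was 0.000853, and by edgeR with the pig as a block it was 0.0602. SEC13, a GATOR2 subunit, and KPTN, a KICSTOR subunit, lay lower in EVs by the unadjusted test, at log2 fold changes of -0.55 and -0.69 (adjusted p = 0.294 and 0.302). KPTN lies within the span of a very long entry with 14423 reads, so its reads are uncertain. The other 11 tested genes of this branch did not pass the unadjusted test.

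RHEB, the GTPase that TSC2 inactivates, pointed the other way from RICTOR. It held 476, 537 and 416 reads in MSCs against 357, 361 and 210 in EVs. Each EV library lay below each MSC library, as in 13.6% of all tested entries. RHEB had a log2 fold change of -0.63 with an SE of 0.27 (edgeR, unadjusted p = 0.0462, adjusted p = 0.305). A second RHEB entry with 658 reads overlaps it, which leaves the split of reads between the entries uncertain. The 5 tested genes for Rag GTPases and Ragulator, which dock mTORC1 on lysosomes, had a median log2 fold change of -0.28, and 0 of them passed the unadjusted test. RRAGA, the most abundant of them per length, was at -0.28 (edgeR, adjusted p = 0.493).

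Upstream of mTORC2 and AKT, PIK3CA, the catalytic subunit of PI3-kinase alpha, was higher in EVs. Its reads were 422, 175 and 319 in MSCs and 500, 711 and 623 in EVs, and MSC replicate 2 was again the lowest. The groups did not overlap, and 14.3% of all tested entries had every EV library above every MSC library. The log2 fold change was 1.07 with an SE of 0.31 (edgeR, unadjusted p = 0.00982, adjusted p = 0.237). It was under 2-fold, at 0.84, without MSC replicate 2 and, at 0.94, without EV replicate 3. PIK3R2, a regulatory subunit of the same kinase, was at -0.24 (adjusted p = 0.677). AKT2, an AKT kinase, held 1020, 1542 and 983 reads in MSCs against 782, 897 and 709 in their EVs (log2 fold change -0.58, SE 0.29, edgeR, adjusted p = 0.352). AKT2 lies within the same long entry of 14423 reads as KPTN.

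Among the targets, PDCD4 and FOXO3 were higher in EVs. PDCD4, a translation inhibitor that S6 kinase marks for breakdown, held 282, 267 and 509 reads in MSCs against 838, 852 and 1406 in EVs. The difference was alike in the 3 pigs, at 1.70, 1.38 and 1.72 on the log2 scale. Over all libraries it was 1.63 with an SE of 0.40 (edgeR, unadjusted p = 0.00417, adjusted p = 0.219). In a fit blocked by pig it was 1.60 (adjusted p = 0.0376), and PDCD4 was the only gene of the list that passed that fit, in which 0.492% of all entries were called higher and 0.605% lower. FOXO3, a transcription factor that AKT holds out of the nucleus, was counted low, with 32, 9 and 13 reads in MSCs against 33, 55 and 51 in EVs (log2 fold change 1.44, SE 0.52, edgeR, unadjusted p = 0.0258, adjusted p = 0.275). Another entry, at 0 reads, overlaps FOXO3 on the same strand, so its level and fold change are uncertain. FOXO3 no longer passed the unadjusted test without MSC replicate 2 (1.18), MSC replicate 3 (1.27), EV replicate 2 (1.43) or EV replicate 3 (1.24).

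**Figure D3:**
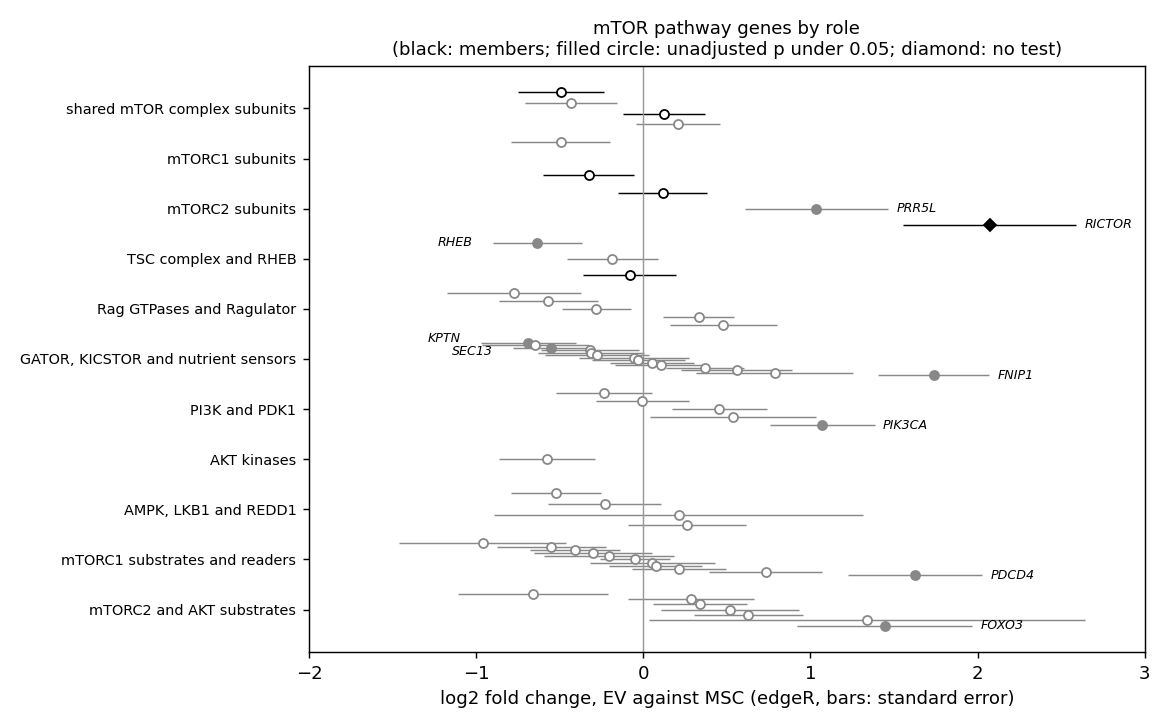
Log2 fold change of EV against MSC (x axis, edgeR, bars: SE) for the 59 tested genes of the mTOR pathway list, in rows by role. Members are black, filled circles have an unadjusted p under 0.05, and RICTOR (diamond) has no test. RICTOR (2.07) and FNIP1 (1.74) lie farthest right, and 29 values are positive and 30 negative.

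By role, the 3 tested mTORC2 subunits had a median log2 fold change of 1.04, and the 2 tested mTORC1 subunits, RPTOR and AKT1S1, had a median of -0.41. AKT1S1, an inhibitor bound to RPTOR, was at -0.49 with an SE of 0.30 (edgeR, adjusted p = 0.409), and like KPTN and AKT2 it lies within the long entry of 14423 reads. Within mTORC2 the 3 genes ranged from MAPKAP1 near 0 to RICTOR, whose value chose the set, so the median stands for few genes. The 4 subunits or assembly factors shared by both complexes had a median of -0.16, TELO2 among them at -0.43 (adjusted p = 0.428). The 11 tested substrates and readers of mTORC1 had a median of -0.05, and the 7 tested substrates of mTORC2 and AKT a median of 0.52. In 6 of these 7 MSC replicate 2 was the lowest MSC library, as it was for RICTOR. That library was the lowest of the MSCs for 46.0% of all tested entries and for 42.4% of the list.

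Of the genes on the list with an entry, 8 were too low for a test. RRAGD, PIK3C3, PRKAB1 and SGK1 were at 0 reads in all 6 libraries, each with another overlapping entry, and no level is read from them. SGK1 is a direct mTORC2 substrate.

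The entries whose levels ran most alike with RICTOR over the 6 libraries were KLHL24, XRN1, UBR2, PHC3 and SIKE1. Pearson's r with RICTOR on log2 CPM was 0.997 for KLHL24 and XRN1, 0.996 for UBR2, and 0.995 for PHC3 and SIKE1. These values describe 6 libraries that share pigs and were picked as the highest of 12392. Each of the 5 was lowest in MSC replicate 2 and had every EV library above every MSC library, which follows largely from that choice. Of all tested entries, 46.0% were lowest of the MSCs in that library and 14.3% had every EV library above. XRN1, the cytoplasmic exonuclease that degrades decapped mRNA, went from 19.2 CPM in MSCs to 54.9 in EVs, and UBR2, a ubiquitin ligase, from 19.8 to 57.4.

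Under all ways of processing that were tried, RICTOR stayed higher in EVs, by 0.87 to 2.69 on the log2 scale. All of them reused libraries by which RICTOR was chosen, so its direction here is a description and no independent check. The range of MAPKAP1 was 0.01 to 0.26, that of RPTOR -0.51 to -0.14 and that of MLST8 -0.65 to -0.25, each on 1 side of 0. MTOR, from -0.32 to 0.29, and TSC2, from -0.48 to 0.20, took both signs.

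**Figure D4:**
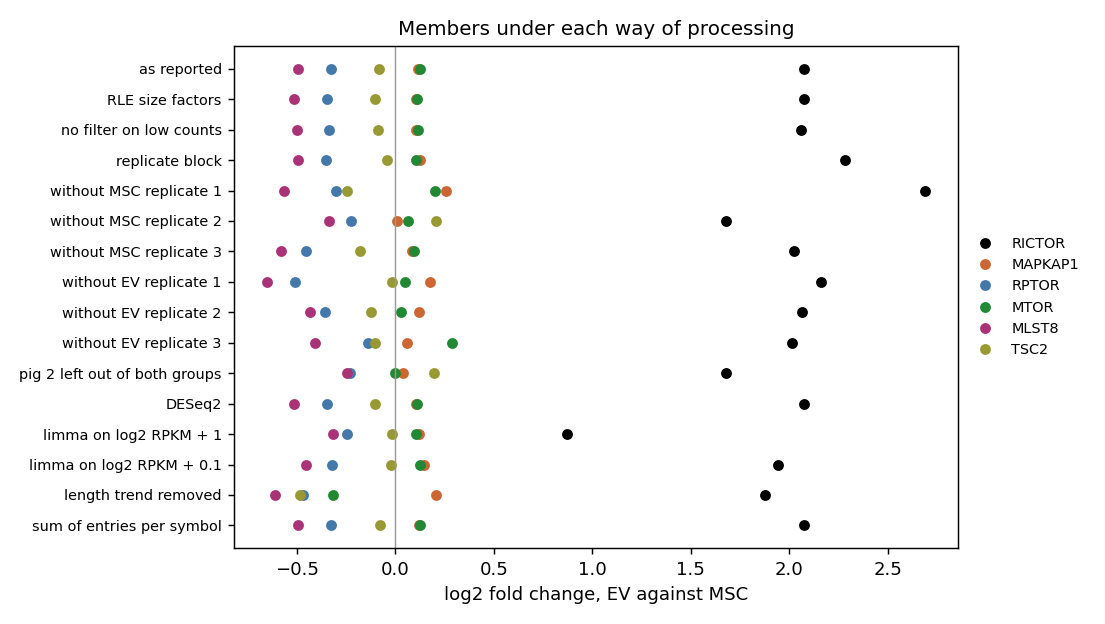
Log2 fold change of EV against MSC (x axis) of the 6 measured members under each way of processing (y axis, 1 line per setting). RICTOR lies between 0.87 and 2.69 and the other members lie between -0.65 and 0.29 throughout. RICTOR was chosen by this contrast.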

How the data were processed

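mRNA was measured in 6 of 12 libraries, an MSC and an EV library from each of 3 pigs. The small-RNA tables were not used here. The authors sequenced the RNA, aligned reads with TopHat to susScr3 and deposited raw counts of reads per gene entry; the study's methods name featureCounts and the submitters' processing notes name HTSeq as the counter. The labels describe a stranded total-RNA kit and the study's methods another kit, and whether counting used strand is not given in the sources used here. The authors also deposited RPKM, in which 25.4% to 28.2% of each library's total was counted on genes. No column of comparisons by the authors was used. Of 29661 entries, 3 shifted by a column were left out, and no per-sample column lacked a sample. Symbols came from the table or, for 11804 of 25322 Ensembl identifiers, from an annotation table. For each symbol the entry with the most reads was used.

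Counts were filtered by expression, scaled by TMM and fitted with edgeR 4.0.16 (R 4.3.3), with Benjamini-Hochberg adjustment over the 12392 entries tested. The thresholds were an adjusted p of 0.05 and a fold of 2, with edgeR's unadjusted p also counted at the study's limits (the study applied them to another test, on its own values). Genes named in the text are the 9 members, pathway genes with an unadjusted p under 0.05, the gene of highest mean RPKM in each role, and the 5 most like RICTOR. The members and the lists were chosen with earlier results of these data known. Same-numbered MSC and EV libraries carry the same pig label. Their deviations from the group means correlated at 0.251, 0.384 and 0.408 and those of different pigs at -0.364 to -0.0385. Alternatives were other size factors, DESeq2 1.42.0, no filter, the pig as a block, each library left out, limma 3.58.1 on log2 RPKM with a pseudocount of 1 or 0.1, removal of the length trend, sums over entries, and, chosen after seeing the data, pig 2 left out of both groups and, for the ratios, removal of the length trend. The fit was tested on simulated data. With 10429085 to 12276855 reads on genes per library, intervals for counts cover counting error only, since reads carried no molecular identifiers. No sequence of these genes was used here, and some genes of the pathway are not reported here.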

Additional observations from a re-analysis of the deposited data

How the results depend on the processing

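The number of pathway genes and entries called depended on the test, and the cause was not tested. With an adjusted p, 0 entries were called either way, but with the pig as a block 61 were higher and 75 lower, by DESeq2 253 and 186, by limma on log2(RPKM + 1) they numbered 1 and 10, on log2(RPKM + 0.1) 5 were lower, and without a filter 5 were lower. Of the list, the block called 1 higher (PDCD4) and DESeq2 3 (FNIP1, PDCD4 and the member RICTOR), beside 0. No weight rests on any call of RICTOR, which was chosen by the same contrast. The block changed no other call of a named gene. By unadjusted p and a fold over 2, the 688 entries higher became 456 without pig 2 (chosen after seeing the data) and 233 by limma with a pseudocount of 1, and the 442 lower became 194 by the latter. Leaving out 1 library gave 511 to 948 higher and 270 (without EV replicate 2) to 607 lower. For the list it gave 3 (without EV replicate 3) to 5 higher in place of 6 and 0 to 1 lower in place of 0, and limma with a pseudocount of 1 gave 2 higher and 0 members in place of 1.

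The sign turned for DDIT4, from 0.21 to between -1.09 and 2.26 with 1 library left out, for NDRG1 to -0.79 without EV replicate 3 (range to 2.81), and for ULK1, from 0.05 to between -0.14 and 0.49, with -0.12 after removal of the length trend. It also turned for TSC2, to 0.20 without MSC replicate 2 (range from -0.25) or without pig 2, and for MTOR to -0.0029 without pig 2 and -0.32 with the length trend removed. The RICTOR to RPTOR ratio (1.99 to 3.17) and the MAPKAP1 to RPTOR ratio (0.20 to 0.71) kept their direction, whereas MAPKAP1 to MTOR ranged from -0.22 to 0.17 with 1 library left out, an alternative chosen after seeing the data. The count of RICTOR in MSC replicate 2, 25 reads, limits the precision of its fold change.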

Other observations

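DDIT4 (also called REDD1), a stress-induced inhibitor of mTORC1, and NDRG1, a stress-induced substrate of SGK1, were the list's genes with the widest spread between libraries. DDIT4 was at 59.0, 860 and 106 CPM in MSC replicates 1, 2 and 3 and at 91.6, 231 and 865 CPM in EV replicates 1, 2 and 3. NDRG1 was at 52.6, 498 and 106 CPM in MSCs and at 24.7, 229 and 1406 CPM in EVs. Both genes were highest of the MSCs in pig 2 and highest of the EVs in pig 3, and their groups overlapped. The log2 fold changes were 0.21 with an SE of 1.11 for DDIT4 and 1.34 with an SE of 1.30 for NDRG1 (edgeR, adjusted p = 0.933 and 0.596). MSC replicate 2, where both were high, was the MSC library with the fewest RICTOR reads. It was the lowest MSC library for 46.0% of all tested entries. EV replicate 3, where both were also high, had a RICTOR level like that of the other EV libraries. A link between these genes and RICTOR was not tested.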
